A study of Mus musculus with 50 samples.

Results

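The genes described here take up, modify or export foreign compounds and steroids, and were taken from a written list of 48 genes in 8 classes: sensors, cytochromes P450 with the flavin monooxygenase Fmo5, dehydrogenases and reductases, hydrolases, steroid dehydrogenases, glutathione transferases, sulfo-, glucuronosyl- and methyltransferases, and efflux transporters. A probe set was found for 47 of them among the 19494 named genes of the array, and Ces2c was not analysed here. Colon RNA was measured in 50 mice, 1 array each, in 10 groups of 5. The age was 10 to 12 weeks by the study design and 11 weeks by the sample descriptions, while the upper age in the source labels differs in each of the 50 samples, from 12 to 61 weeks in steps of 1. Mice were kept in a specific pathogen-free facility on chow.

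Combined deletions came as FADD IEC-KO Zbp1 -/-, as FADD IEC-KO Mlkl -/-, as CASP8 IEC-KO Mlkl -/- and, with both deletions epithelial, as FADD IEC-KO RIPK3 IEC-KO. The single deletions FADD IEC-KO and, separately, CASP8 IEC-KO formed 2 groups each, and mice with floxed alleles alone (Fadd fl/fl, Casp8 fl/fl) were the controls. IEC-KO stands for deletion in intestinal epithelial cells (which promoter drives the Cre was not given), while Zbp1 and Mlkl are given as -/- with no tissue restriction. FADD is the adaptor that recruits caspase-8 to death receptors, ZBP1 and RIPK3 act upstream of MLKL, and MLKL executes necroptosis. Array titles carried numbers either from 1 to 30 (here the first series) or from 86 to 124 (the second series). Whether these are batches is not stated, so comparisons were kept within a series except where noted. Fadd fl/fl was the only control in the first series and Casp8 fl/fl the only one in the second, so CASP8 IEC-KO mice of the first series and FADD IEC-KO mice of the second were set against the floxed line of the other gene. The double epithelial deletion with RIPK3 was only in the second series, and the other combined deletions only in the first.

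Intestinal epithelium handles foreign compounds and steroids in steps. Ligand-activated sensors such as PXR (Nr1i2), CAR (Nr1i3) and the aryl hydrocarbon receptor (Ahr) switch on enzyme genes, cytochromes P450, reductases and hydrolases expose or add reactive groups, transferases attach glutathione, sulfate or glucuronic acid, and ABC transporters pump the products out of the cell. In the intestine many of these genes are known from absorptive cells of the epithelial surface, and several are known to be lower in inflamed gut.

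The promoters of 4 members are shown because these genes carry the differences described below: Cyp2c55 had the largest fall in FADD IEC-KO colon, Abcb1a and Akr1c19 fell in both series (the first-series call for Akr1c19 depended on the processing), and Gstp1 rose with either single deletion in the second series. Each sequence is the strand of the gene from 250 bases before the RefSeq start to 50 bases from the start on, in build GRCm38.p6. Capitals mark matches, on either strand, to GCGTG (the core bound by the aryl hydrocarbon receptor), TGACNNNGC (the antioxidant response element core) and AGGTCA or AGTTCA (hexamers bound by nuclear receptors). The motif TGACNNNGC can overlap AGGTCA read on the opposite strand. Cyp2c55 lies at chr19:39006769-39007068 (plus strand), Abcb1a at chr5:8566841-8567140 (plus), Akr1c19 at chr13:4233490-4233789 (plus) and Gstp1 at chr19:4037863-4038162 (minus).
Cyp2c55: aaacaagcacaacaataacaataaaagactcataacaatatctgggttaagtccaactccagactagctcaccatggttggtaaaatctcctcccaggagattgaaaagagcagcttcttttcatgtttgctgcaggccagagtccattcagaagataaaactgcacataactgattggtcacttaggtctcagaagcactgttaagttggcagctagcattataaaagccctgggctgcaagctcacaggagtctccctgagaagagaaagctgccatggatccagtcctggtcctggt
Abcb1a: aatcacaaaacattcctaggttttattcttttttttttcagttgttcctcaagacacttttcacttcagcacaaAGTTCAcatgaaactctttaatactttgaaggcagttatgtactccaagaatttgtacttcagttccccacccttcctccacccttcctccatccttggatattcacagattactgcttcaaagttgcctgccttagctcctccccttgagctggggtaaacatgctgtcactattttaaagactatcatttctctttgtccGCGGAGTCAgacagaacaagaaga
Akr1c19: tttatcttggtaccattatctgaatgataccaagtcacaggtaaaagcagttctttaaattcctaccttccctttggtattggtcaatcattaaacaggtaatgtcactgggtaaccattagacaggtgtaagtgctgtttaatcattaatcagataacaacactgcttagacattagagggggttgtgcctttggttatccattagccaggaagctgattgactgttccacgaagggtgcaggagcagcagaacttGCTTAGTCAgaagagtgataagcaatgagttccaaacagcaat
Gstp1: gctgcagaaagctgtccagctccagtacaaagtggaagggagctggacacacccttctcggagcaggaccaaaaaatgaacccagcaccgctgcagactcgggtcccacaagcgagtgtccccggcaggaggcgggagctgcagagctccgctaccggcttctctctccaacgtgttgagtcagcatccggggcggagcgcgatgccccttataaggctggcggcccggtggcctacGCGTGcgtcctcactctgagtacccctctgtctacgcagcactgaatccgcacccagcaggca
The Abcb1a window held AGTTCA as printed and TGACNNNGC on the opposite strand, the Akr1c19 window held TGACNNNGC on the opposite strand, the Gstp1 window held GCGTG, and none of the 4 motifs was found in the Cyp2c55 window. Windows were given for 42 of the 48 listed genes, 48 windows in all. GCGTG was in 9 of these 48 windows (18.8%, against 32.4% of all 32851 mouse windows of this length), TGACNNNGC in 7 (14.6%, against 12.4%), AGGTCA in 7 (14.6%, against 16.3%) and AGTTCA in 3 (6.2%, against 14.0%). Counted by gene, any of the 4 motifs was in 3 of the 15 members with a window that fell in FADD IEC-KO colon of the first series (20.0%). It was in 14 of 27 other listed genes (51.9%) and in 61.2% of all genes with a window. The 4 promoters shown are thus no guide to how often the fallen members hold a motif. Fmo5 also fell in both series, and its window, not shown, held none of the 4. These matches describe the letters of the windows and are not binding sites. Cyp2c55, Cyp2c65 and Cyp2c66 are direct neighbours on chromosome 19, as are Akr1c13, Akr1c19 and Akr1c12 on chromosome 13.

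As a check of the labels, Fadd fell by 0.99 ± 0.11 in FADD IEC-KO colon of the first series (log2 difference ± SE, adjusted p = 3.258e-07) and Casp8 by 1.18 to 1.52 in the CASP8 IEC-KO groups, against floxed colon. Zbp1 fell by 1.80, Ripk3 by 1.41 and Mlkl by 1.28 and 1.95 in the combined deletions, against the single knockout. Against floxed colon Zbp1 differed by -0.19 and Ripk3 by 0.09 in their combined deletions and neither passed. The Ripk3 label is thus checked here only against FADD IEC-KO colon, where Zbp1 and Ripk3 had both risen. Zbp1 was also lower in FADD IEC-KO Zbp1 -/- than in FADD IEC-KO Mlkl -/- colon, by 1.32 ± 0.27 (limma, adjusted p = 0.009432). In the latter it differed from floxed colon by 1.13 without passing. Epithelial markers (14 genes) averaged 10.33 to 10.85 in all 50 arrays, and the hepatocyte list 5.78 to 6.55. FADD IEC-KO replicates 22 and 23 of the first series and 117 and 124 of the second stood apart by neutrophil markers. Their neutrophil marker means were 9.05, 7.36, 7.80 and 6.24, against 4.27 to 5.74 in the other arrays. Other lists did not split the arrays in this way. Means of interferon-gamma genes were 9.92, 9.21, 9.50 and 8.99 in replicates 22, 23, 117 and 124. They were 9.34 in CASP8 IEC-KO replicate 104, and 8.94 and 8.80 in FADD IEC-KO replicates 24 and 25. The smooth muscle mean was 9.72 in replicate 25 and 9.60 in replicate 22. Results that rest on replicates 22, 23, 117 and 124 are given with and without them, and the arrays kept are not thereby free of inflammation. Sex was read from the signals of Y-linked genes, by which each group held 1 to 4 males of 5. In bulk tissue, fewer cells of a type and less RNA per cell cannot be told apart.

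Loss of FADD in the epithelium was set against floxed colon in the first series to ask how far these genes follow the deletion. Of the 47 members, 17 fell and 1 rose, against 10.1% of all genes that fell and 8.59% that rose (limma, Benjamini-Hochberg adjusted p under 0.05, 5 arrays per group). The members' median difference was -0.30 on the log2 scale (all genes -0.02), and 36 of 47 were lower. The 5 largest falls were those of the cytochrome Cyp2c55, the drug efflux pump Abcb1a, the retinal dehydrogenase Aldh1a1 and the sulfotransferases Sult1a1 and Sult1c2, while the carboxylesterase Ces2e rose. In 4 members all FADD IEC-KO arrays lay below all Fadd fl/fl arrays (4.97% of all genes did), and in 1 member all lay above (4.23%). Falls were in all 8 classes: 1 of 3 sensors, 4 of 9 cytochromes and Fmo5, 3 of 8 dehydrogenases and reductases, 1 of 5 hydrolases, 1 of 2 steroid dehydrogenases, 2 of 11 glutathione transferases, 3 of 5 sulfo-, glucuronosyl- and methyltransferases, and 2 of 4 efflux transporters.

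**Figure D1:**
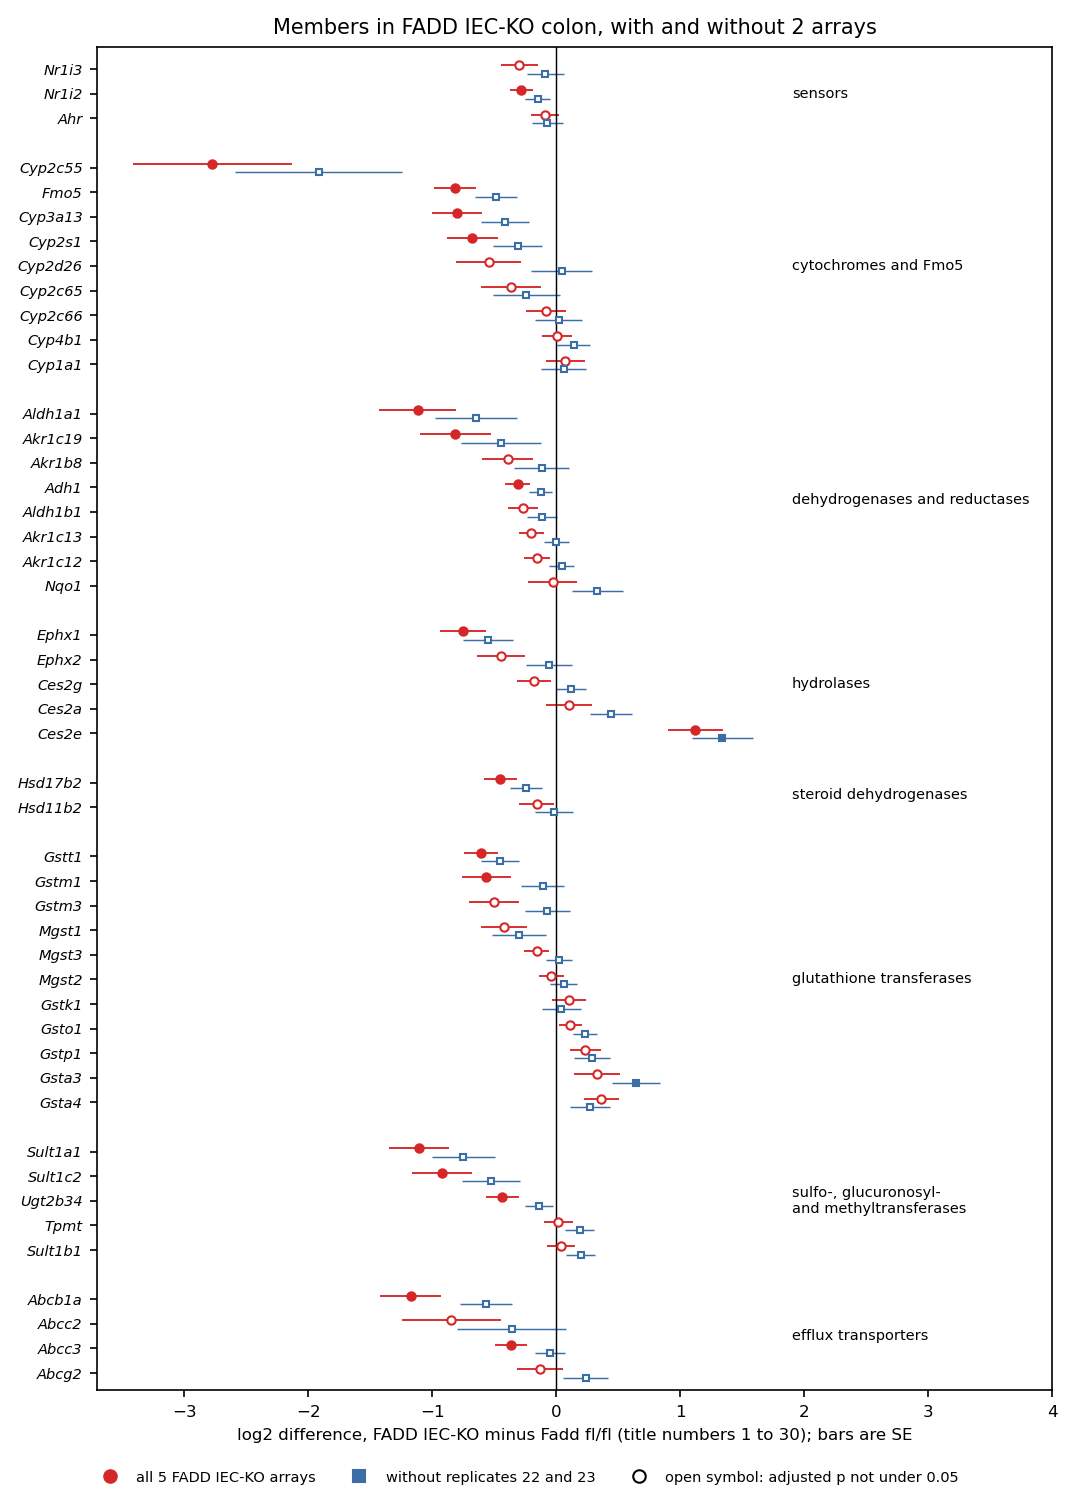
Difference in log2 signal, FADD IEC-KO minus Fadd fl/fl colon of the first series, for the 47 members in 8 classes (points with SE bars; red circles, all 5 FADD IEC-KO arrays; blue squares, without replicates 22 and 23; filled, adjusted p under 0.05). Most red circles lie left of 0, Cyp2c55 farthest at -2.77, and Ces2e lies right of 0 at 1.12; without the 2 arrays only Ces2e and Gsta3 are filled.

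Among the sensors, Nr1i2, which encodes the pregnane X receptor, had log2 signals of 7.95, 7.50, 7.86, 8.05 and 8.01 in FADD IEC-KO colons (replicates 21 to 25), against 8.11, 8.14, 8.24, 8.15 and 8.13 in Fadd fl/fl colons (replicates 26 to 30). The groups did not overlap, and Nr1i2 fell by 0.28 ± 0.09 (SE, adjusted p = 0.03008). The call depended on single arrays and was lost without replicate 22, 23 or 28. Nr1i3 differed by -0.30 ± 0.15 and Ahr by -0.09 ± 0.11, and neither passed.

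Cyp2c55, a colonic cytochrome P450 that oxidizes arachidonic acid, had log2 signals of 10.21, 5.02, 7.95, 8.65 and 7.03 in FADD IEC-KO colons, against 10.38, 10.98, 10.93, 10.40 and 10.04 in Fadd fl/fl colons. Replicate 21 lay within the floxed range and the other 4 below it, and replicate 22 was lowest. Cyp2c55 fell by 2.77 ± 0.64 (adjusted p = 0.002047), to 0.147 of the floxed level. Fmo5, a flavin monooxygenase, had 8.20, 7.00, 7.12, 7.72 and 7.77 in FADD IEC-KO colons, against 8.15, 8.68, 8.72, 8.05 and 8.30 in Fadd fl/fl colons. Only replicate 21 reached the floxed range, and Fmo5 fell by 0.82 ± 0.17 (adjusted p = 6.310e-04). Cyp3a13, of the drug-oxidizing CYP3A subfamily, fell by 0.80 ± 0.20 with no overlap between groups, and Cyp2s1, a cytochrome P450 of epithelia, fell by 0.68 ± 0.20. The differences of the neighbouring Cyp2c65 (-0.36 ± 0.24) and Cyp2c66 (-0.08 ± 0.16) did not pass, nor did those of Cyp2d26 (-0.54 ± 0.26), Cyp4b1 (0.01 ± 0.12) and Cyp1a1 (0.07 ± 0.16). Cyp1a1 and the transporter gene Abcc2 were among the dimmest 40% of genes on these arrays.

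Of the dehydrogenases and reductases, Aldh1a1, which makes retinoic acid from retinal, had 8.48, 6.36, 7.14, 7.81 and 7.49 in FADD IEC-KO colons, against 8.75, 8.76, 8.80, 8.18 and 8.39 in Fadd fl/fl colons. Replicate 21 alone lay within the floxed range, and Aldh1a1 fell by 1.12 ± 0.31 (adjusted p = 0.009157). Akr1c19, an aldo-keto reductase, had 7.74, 6.45, 6.81, 7.46 and 7.42 in FADD IEC-KO colons, against 7.96, 8.62, 8.66, 7.18 and 7.53 in Fadd fl/fl colons. These groups overlapped, the floxed arrays spanning 1.48 log2 units, and Akr1c19 fell by 0.81 ± 0.29 (adjusted p = 0.04185). This call passed in 2 of 9 alternative analyses, being lost with a sex or clock covariate among others, and in 5 of 10 fits with 1 array left out. Adh1, an alcohol dehydrogenase, fell by 0.31 ± 0.10 with no overlap. Nqo1, the quinone reductase known as a target of the antioxidant response, differed by -0.03 ± 0.20, and Akr1c12 and Akr1c13, which flank Akr1c19, by -0.15 ± 0.10 and -0.20 ± 0.10, none of which passed.

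The hydrolases moved in both directions. Ces2e, a carboxylesterase of the family that cleaves ester drugs and lipids, had 8.80, 8.21, 8.95, 8.59 and 9.98 in FADD IEC-KO colons, against 7.82, 7.64, 7.72, 8.00 and 7.74 in Fadd fl/fl colons. All FADD IEC-KO arrays were above all floxed arrays, and Ces2e rose by 1.12 ± 0.22 (2.18-fold, adjusted p = 4.590e-04). Ephx1, the microsomal epoxide hydrolase, had 7.69, 6.32, 7.07, 7.03 and 6.86 in FADD IEC-KO colons, against 7.97, 7.80, 7.74, 7.64 and 7.59 in Fadd fl/fl colons. Its groups overlapped only through replicate 21, and Ephx1 fell by 0.75 ± 0.18 (adjusted p = 0.003301). The nearby carboxylesterase genes Ces2a (0.11 ± 0.19) and Ces2g (-0.18 ± 0.13), and Ephx2, the soluble epoxide hydrolase (-0.45 ± 0.19), did not pass. Hsd17b2, which inactivates estradiol and testosterone, had 9.30, 8.24, 9.04, 8.94 and 9.23 in FADD IEC-KO colons, against 9.29, 9.25, 9.14, 9.75 and 9.58 in Fadd fl/fl colons. The 2 groups overlapped, with replicate 22 lowest, and Hsd17b2 fell by 0.45 ± 0.13 (adjusted p = 0.01362). Hsd11b2, which inactivates glucocorticoids, differed by -0.16 ± 0.14 and did not pass.

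Glutathione transferases had the smallest shift, with a median difference of -0.04 over 11 genes, 5 of them higher. Gstt1, of the theta class, had 7.59, 6.83, 6.79, 6.95 and 7.03 in FADD IEC-KO colons, against 7.65, 7.55, 7.75, 7.67 and 7.59 in Fadd fl/fl colons. Replicate 21 reached the floxed range and the other 4 lay below it, and Gstt1 fell by 0.61 ± 0.14 (adjusted p = 0.001655). Gstm1, of the mu class, had 11.33, 9.53, 10.44, 11.07 and 10.95 in FADD IEC-KO colons, against 11.29, 11.04, 11.23, 11.43 and 11.13 in Fadd fl/fl colons. Its lowest values were in replicates 22 and 23, and it fell by 0.56 ± 0.20 (adjusted p = 0.04073), a call that passed in 4 of 10 fits with 1 array left out. The alpha-class genes Gsta4 (0.36 ± 0.14) and Gsta3 (0.33 ± 0.18) and the pi-class gene Gstp1 (0.24 ± 0.12) were on the higher side without passing.

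In the conjugating class, Sult1a1, a sulfotransferase for phenols, had 9.28, 7.50, 8.24, 8.69 and 8.29 in FADD IEC-KO colons, against 9.53, 9.42, 9.22, 9.66 and 9.70 in Fadd fl/fl colons. Only replicate 21 reached the floxed range, and Sult1a1 fell by 1.11 ± 0.24 (adjusted p = 0.001147). Sult1c2, another cytosolic sulfotransferase, had 8.56, 6.74, 8.20, 8.87 and 7.93 in FADD IEC-KO colons, against 8.60, 9.20, 9.23, 8.98 and 8.89 in Fadd fl/fl colons. Replicate 24 alone lay within the floxed range, and Sult1c2 fell by 0.92 ± 0.24 (adjusted p = 0.005745). Ugt2b34, a glucuronosyltransferase, fell by 0.43 ± 0.13. Sult1b1 (0.04 ± 0.11) and the thiopurine methyltransferase gene Tpmt (0.02 ± 0.12) did not pass.

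Of the 4 efflux transporters, 2 fell. Abcb1a encodes P-glycoprotein, which returns drugs to the lumen, and had 11.38, 9.22, 10.15, 10.98 and 11.23 in FADD IEC-KO colons, against 11.69, 12.00, 11.96, 11.73 and 11.44 in Fadd fl/fl colons. There was no overlap, and Abcb1a fell by 1.17 ± 0.25 (adjusted p = 7.943e-04), to 0.444 of the floxed level. Abcc3, the basolateral exporter MRP3, had 10.85, 9.92, 10.02, 10.53 and 10.89 in FADD IEC-KO colons, against 10.85, 10.63, 10.58, 11.08 and 10.89 in Fadd fl/fl colons. Its lowest values were again in replicates 22 and 23, the groups overlapped, and it fell by 0.37 ± 0.13 (adjusted p = 0.04576), a call that passed in 3 of 9 alternative analyses and in 5 of 10 fits with 1 array left out. Abcc2 (-0.85 ± 0.40) and Abcg2 (-0.13 ± 0.19), both apical exporters, did not pass.

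The calls of these falls depended on replicates 22 and 23. Replicate 22 had the lowest signal of its group for 39 of the 47 members, and the list mean was 8.83, 7.74, 8.30, 8.56 and 8.62 in FADD IEC-KO replicates 21 to 25, against 8.66 to 8.82 in Fadd fl/fl colons. Without both arrays none of the 17 falls passed, although all 17 members were still lower, with differences from -1.91 to -0.05 and a median of -0.45. The remaining arrays also served to pick the 17, so the kept sign is no separate support. Ces2e rose by 1.34 ± 0.25 without replicates 22 and 23 (adjusted p = 0.003078), and Gsta3 then passed as well (0.64 ± 0.19, adjusted p = 0.04889). In the full comparison, 8 of 9 neutrophil and 11 of 11 monocyte and macrophage markers rose, 11 of 11 smooth muscle markers fell, and 3 of 14 epithelial markers rose while 1 fell. Of the 8 colonocyte markers 2 fell, with array means of 9.99 to 11.55 in FADD IEC-KO colons and 10.96 to 11.40 in Fadd fl/fl colons. Smooth muscle means were 9.42 to 10.88 in FADD IEC-KO colons and 10.97 to 11.20 in Fadd fl/fl colons. The part of these shifts in the members' falls was not tested. A clock score, activator minus output genes of the circadian clock, was -0.27 to 1.67 in FADD IEC-KO and -1.31 to 1.74 in Fadd fl/fl colons. With this score as covariate the calls of Adh1, Akr1c19, Gstm1, Ugt2b34 and Abcc3 were lost.

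**Figure D2:**
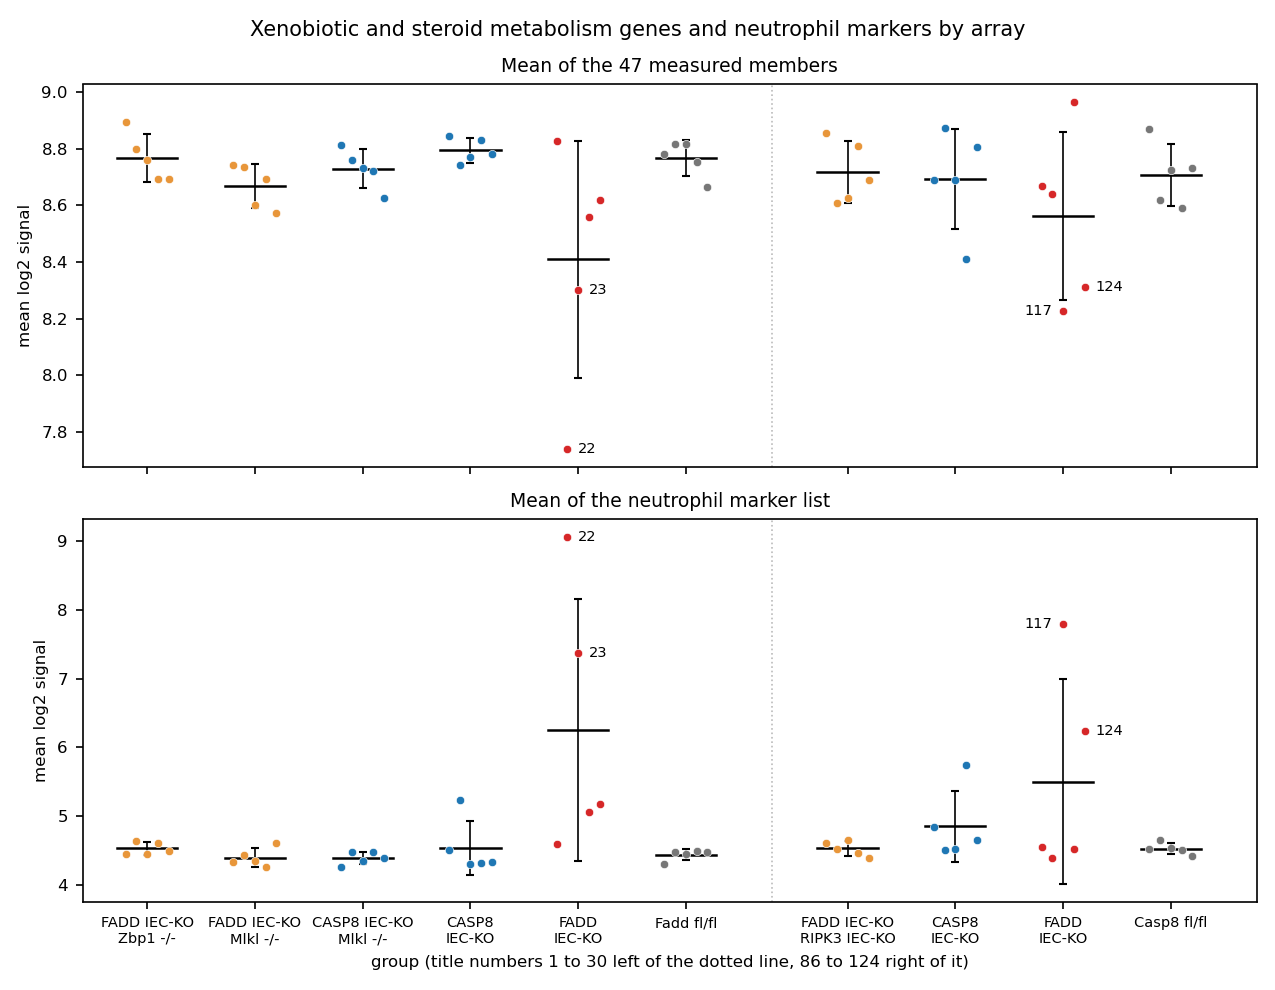
Mean log2 signal of the 47 members (top) and of the neutrophil markers (bottom) in each of the 50 arrays (points) by group, with the group mean and SD (lines and bars), co-deletions and single knockouts left of the floxed controls within each series; replicates 22, 23, 117 and 124 are numbered. FADD IEC-KO arrays spread from 7.74 to 8.83 in the first series and from 8.23 to 8.96 in the second, and the Fadd fl/fl arrays lie between 8.66 and 8.82; in the lower panel the 4 numbered arrays are the highest of all.

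In the second series, FADD IEC-KO against Casp8 fl/fl, 3 members rose and 3 fell, against 6.80% of all genes that rose and 4.25% that fell. All 6 separated the 2 groups without overlap, and Ugt2b34 was also below without passing (-0.36, adjusted p = 0.06322), while 4.51% of all genes lay above and 2.48% below. Akr1c19 had 6.65, 6.96, 6.70, 6.95 and 7.33 in FADD IEC-KO colons (replicates 89, 95, 117, 120 and 124), against 8.37, 7.39, 8.19, 7.58 and 8.58 in Casp8 fl/fl colons (replicates 86, 91, 98, 105 and 119). It fell by 1.11 ± 0.29 (adjusted p = 0.009303), and by 1.17 ± 0.34 without replicates 117 and 124 (adjusted p = 0.03068), arrays whose removal was chosen after seeing the data. Abcb1a had 11.14, 11.26, 9.90, 11.56 and 10.45 in FADD IEC-KO colons, against 11.90, 11.80, 11.94, 11.73 and 12.17 in Casp8 fl/fl colons. It fell by 1.05 ± 0.25 (adjusted p = 0.003876), and without replicates 117 and 124 its difference of -0.59 ± 0.25 no longer passed. Fmo5 fell by 0.65 ± 0.17 (adjusted p = 0.008178), and differed by -0.54 ± 0.19 without these 2 arrays, which did not pass (adjusted p = 0.08696). Smooth muscle means were 9.23 to 11.07 in FADD IEC-KO colons and 10.86 to 11.11 in Casp8 fl/fl colons, and their part was not tested.

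The 3 members that rose in the second series were Gstp1, Ces2e and Abcc3. Gstp1, a pi-class glutathione transferase, had 10.15, 10.10, 9.72, 10.51 and 9.88 in FADD IEC-KO colons, against 9.65, 9.35, 9.47, 9.34 and 9.32 in Casp8 fl/fl colons, and rose by 0.65 ± 0.12 (adjusted p = 4.859e-04). Without replicates 117 and 124 it rose by 0.83 ± 0.13 (adjusted p = 1.880e-04). Gstp2, a near copy of Gstp1, gave 0.67, and cross-hybridisation between their probes was not tested. Ces2e rose by 0.82 ± 0.22 (adjusted p = 0.01163), with 8.33 to 9.32 in FADD IEC-KO colons and 7.78 to 8.17 in Casp8 fl/fl colons, and did not pass without replicates 117 and 124 (0.62 ± 0.25). Abcc3 had 11.11, 10.95, 10.78, 11.45 and 10.81 in FADD IEC-KO colons, against 10.76, 10.41, 10.75, 10.44 and 10.44 in Casp8 fl/fl colons. It rose by 0.46 ± 0.13 (adjusted p = 0.01731), and by 0.61 ± 0.15 without replicates 117 and 124.

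The 2 FADD IEC-KO comparisons share no arrays. Of the 17 members that fell in the first series, 15 were lower in the second, where 3 fell (Abcb1a, Akr1c19 and Fmo5) and 1, Abcc3, rose, with a median of -0.36 against -0.03 for all genes. How the 1976 genes of the whole array that fell in the first series moved in the second is not given here. Whether the members differ from those genes was not tested. Without replicates 117 and 124, 10 of the 17 were lower and the median was -0.04. Cyp2c55 had 9.81, 9.71, 5.52, 10.92 and 7.31 in FADD IEC-KO colons of the second series, against 10.66, 11.16, 10.45, 10.22 and 9.55 in Casp8 fl/fl colons. Its 2 low arrays were replicates 117 and 124, the others lay within the floxed range, and the difference of -1.75 ± 0.64 did not pass (adjusted p = 0.06671). A test of the difference between the series passed for 1 member, Abcc3 (-0.83 ± 0.19 for the first minus the second series, adjusted p = 0.04941; 0.0256% of all genes passed with a positive and 0.0975% with a negative difference), and at an unadjusted p under 0.05 for 6 (10.7% of all genes). Neither Cyp2c55 (-1.02 ± 0.91) nor Abcb1a (-0.12 ± 0.35) passed that test. The call for Abcc3 was lost without replicates 22 and 23 and passed in 8 of 20 fits with 1 array left out, and since each series had its own floxed line, series and control line cannot be told apart.

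**Figure D3:**
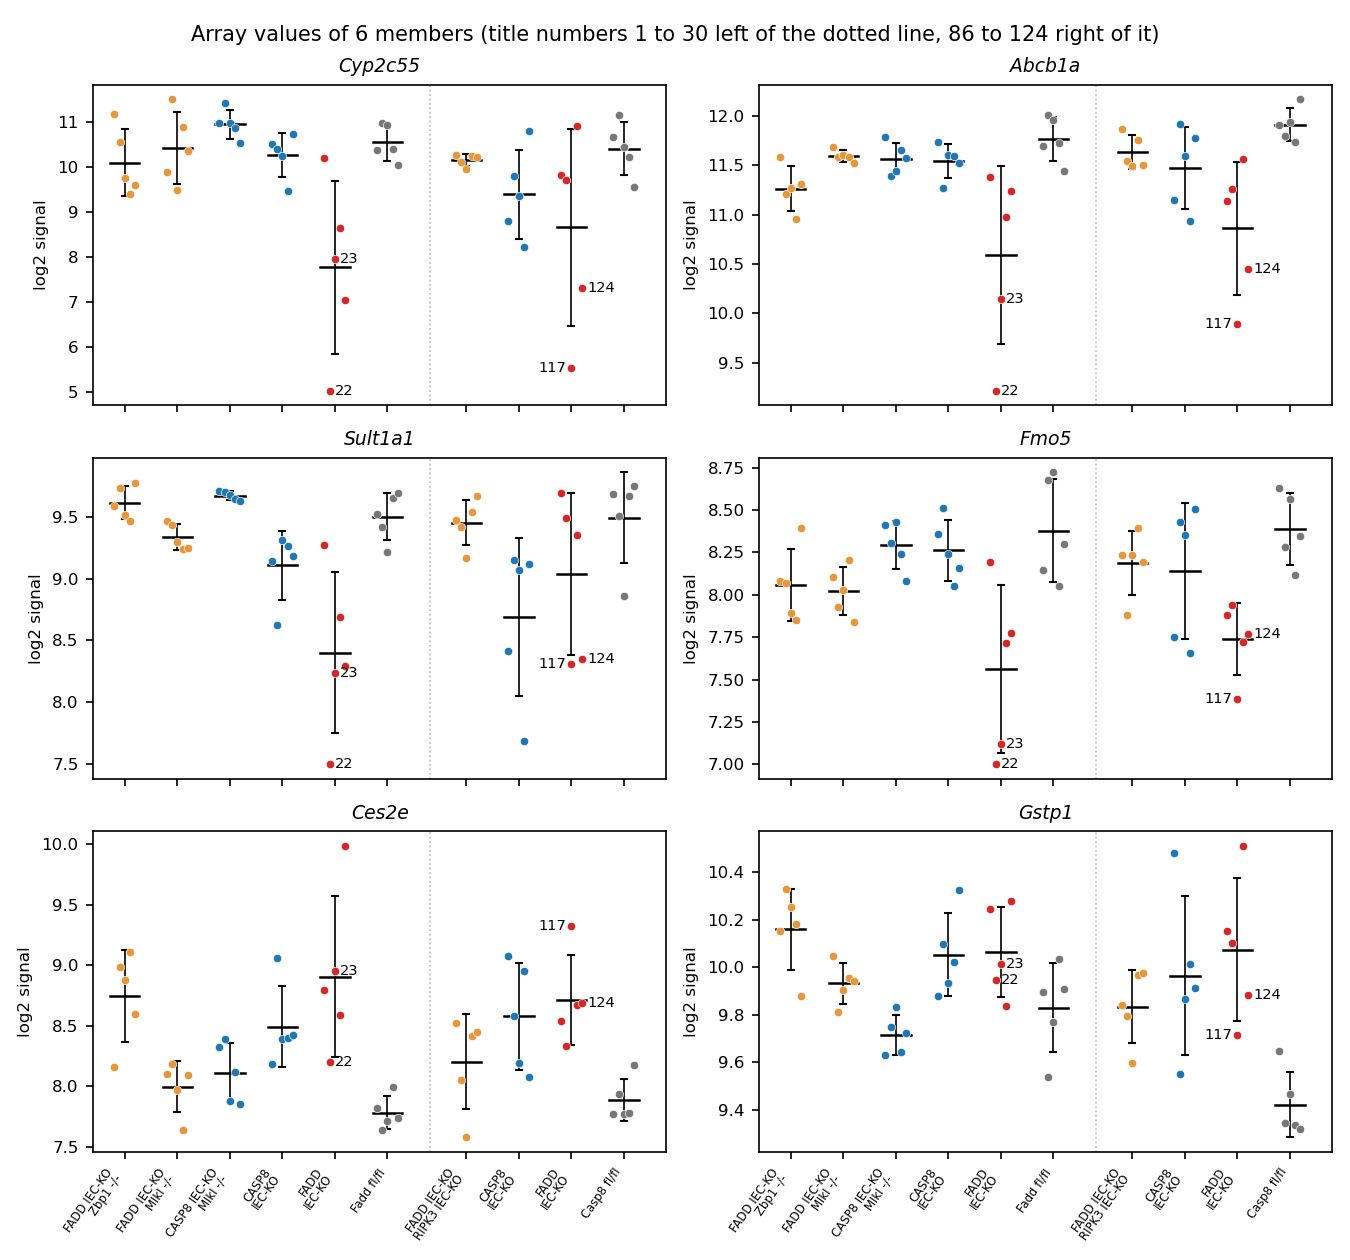
Log2 signal of 6 members in every array (points) by group, with the group mean and SD (lines and bars), combined deletions and single knockouts left of the floxed controls; replicates 22, 23, 117 and 124 are numbered. Cyp2c55 reaches down to 5.02 and 5.52 in the 2 FADD IEC-KO groups and stays at 8.21 or more in every other group.

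Loss of caspase-8 was tested in the same way. In the second series CASP8 IEC-KO colon had 1 member higher and none lower than Casp8 fl/fl colon (limma; 1.80% of all genes rose and 0.662% fell, and 9 members had an unadjusted p under 0.05, as did 18.3% of all genes). That member was Gstp1, with 10.48, 9.55, 9.86, 10.01 and 9.91 in CASP8 IEC-KO colons (replicates 87, 92, 100, 104 and 108), against 9.65, 9.35, 9.47, 9.34 and 9.32 in Casp8 fl/fl colons. The groups overlapped through replicate 92, and Gstp1 rose by 0.54 ± 0.12 (adjusted p = 0.0159), a call lost without replicate 87 or 104. Nqo1 (0.62 ± 0.20) and Mgst3 (0.32) lay above all Casp8 fl/fl arrays without passing, as 1.68% of all genes did, and no member lay fully below (1.26%). The Casp8 fl/fl controls were themselves at 9.42 ± 0.14 for Gstp1 (SD, n = 5), against 9.83 ± 0.19 in Fadd fl/fl colons, a difference across the series of -0.41 ± 0.12 that did not pass. Replicate 104 had the lowest signal of its group for 26 of 47 members and a neutrophil mean of 5.74.

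In the first series no member passed between CASP8 IEC-KO and Fadd fl/fl colon by limma, where 0.0564% of all genes rose and 0.0667% fell, and 6 members had an unadjusted p under 0.05, as did 11.7% of all genes. Ces2e lay above all Fadd fl/fl arrays (0.71 ± 0.22, adjusted p = 0.1764), as did 1.11% of all genes, and no member lay fully below (1.60%). Cyp2c55 had 10.50, 10.40, 10.24, 9.46 and 10.73 in CASP8 IEC-KO colons of the first series and 8.80, 9.79, 9.34, 8.21 and 10.80 in those of the second. Its differences from the floxed controls, -0.28 ± 0.64 in the first series and -1.02 ± 0.64 in the second, did not pass. The difference of the CASP8 IEC-KO effect between the series passed for no member by limma, and none had an unadjusted p under 0.05, as 7.95% of all genes did (0.00513% of all genes with a positive and 0% with a negative difference passed).

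Set against FADD IEC-KO, as the average of the contrasts in the 2 series, CASP8 IEC-KO colon had 8 members higher and none lower (2.13% of all genes rose and 3.00% fell), and 44 of 47 were on the higher side, with a median of 0.18 against 0.01 for all genes. Cyp2c55 was higher by 1.62 ± 0.45 (adjusted p = 0.02815), and Abcb1a by 0.78 ± 0.17 (adjusted p = 0.005486). Abcb1a had 11.73, 11.27, 11.60, 11.59 and 11.52 in CASP8 IEC-KO colons of the first series and 11.15, 11.92, 11.59, 10.94 and 11.77 in those of the second, against 9.22 to 11.56 in the 10 FADD IEC-KO colons. The others were Fmo5 (0.55), Akr1c19 (0.68), Cyp2s1 and Nqo1 (0.47 each), Hsd17b2 (0.33) and Ugt2b34 (0.30). All 8 overlapped between the groups. None passed without replicates 22 and 23, where the 8 were still higher, by 0.16 to 1.19 (Abcb1a by 0.48 ± 0.14, adjusted p = 0.09417). Nor did any pass without those and 117 and 124, where the 8 were higher by 0.09 to 0.53 (Cyp2c55 by 0.44 ± 0.34). Since the 8 were picked with the remaining arrays included, the kept sign is no separate support. In fits with 1 array left out, Abcb1a and Fmo5 passed in 20 of 20, Nqo1 in 7 and Cyp2s1 in 9, and this comparison shares its FADD IEC-KO arrays with the comparisons above. None of the 8 passed in a fit of the compared arrays alone, where the spread comes from those groups only.

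Zbp1 loss was set against FADD IEC-KO alone in the first series, with the same FADD IEC-KO arrays as in the comparison with Fadd fl/fl. Members picked as low in those arrays tend to come out higher here, so these rises are no separate support for the falls. Of the 17 members that fell there, 11 rose here. In FADD IEC-KO Zbp1 -/- colon 16 members rose and none fell, where 5.61% of all genes rose and 5.14% fell. The median was 0.35 against 0.01 for all genes, and 39 of 47 members were higher. By class, 3 of 9 cytochromes and Fmo5, 3 of 8 dehydrogenases and reductases, 1 of 5 hydrolases, 1 of 2 steroid dehydrogenases, 4 of 11 glutathione transferases, 2 of 5 conjugating transferases and 2 of 4 efflux transporters rose. Cyp2c55 had 11.17, 10.55, 9.76, 9.40 and 9.60 in FADD IEC-KO Zbp1 -/- colons (replicates 1 to 5), against 10.21, 5.02, 7.95, 8.65 and 7.03 in FADD IEC-KO colons. The groups overlapped through replicate 21, and Cyp2c55 rose by 2.32 ± 0.64 (5.00-fold, adjusted p = 0.01468). Sult1a1 had 9.59, 9.74, 9.52, 9.47 and 9.78 in FADD IEC-KO Zbp1 -/- colons, against 9.28, 7.50, 8.24, 8.69 and 8.29 in FADD IEC-KO colons, with no overlap, and rose by 1.22 ± 0.24 (adjusted p = 0.001303). Abcc3 (0.63 ± 0.13), Hsd17b2 (0.62 ± 0.13) and Aldh1b1, a mitochondrial aldehyde dehydrogenase (0.36 ± 0.12), also rose without overlap, so that 4 members lay fully above (3.03% of all genes).

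The other 11 that rose with Zbp1 loss were Aldh1a1 (0.92), Cyp2d26 (0.90), Sult1c2 (0.76), Gstm3 (0.69), Gstt1 and Gstm1 (0.63 each), Abcg2 (0.59), Ephx1 (0.56), Fmo5 (0.50), Adh1 (0.35) and Mgst3 (0.31). Abcb1a (0.67 ± 0.25, adjusted p = 0.06683) and Akr1c19 (-0.24 ± 0.29) did not pass. None of the 16 passed without replicates 22 and 23, although all 16 were still higher, by 0.13 to 1.47, and 13 of them had moved by over 1.5 times. Because the 16 were picked with the remaining arrays included, the kept sign is no separate support. Cyp2c55 was then higher by 1.47 ± 0.67, Sult1a1 by 0.86 ± 0.26 (adjusted p = 0.08749), Gstt1 by 0.48 ± 0.15 and Hsd17b2 by 0.42 ± 0.13. Sult1a1, Gstt1, Hsd17b2 and Abcc3 passed in 10 of 10 fits with 1 array left out, Aldh1b1, Gstm1 and Mgst3 in 4, Ephx1 and Sult1c2 in 3, and Aldh1a1 in 2. In a fit of the compared arrays alone, where the spread comes from those groups only, Sult1a1 alone of the 16 passed. Neutrophil means were 4.45 to 4.65 in FADD IEC-KO Zbp1 -/- colons and 4.61 to 9.05 in FADD IEC-KO colons, and their part was not tested.

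Mlkl loss on the same background gave 6 members that rose and 1 that fell (2.91% of all genes rose and 2.93% fell). The FADD IEC-KO arrays were again those of the comparison with Fadd fl/fl, where all 6 had fallen, so these changes are no separate support either. Cyp2c55 had 9.88, 11.51, 9.48, 10.88 and 10.36 in FADD IEC-KO Mlkl -/- colons (replicates 11 to 15), against 10.21, 5.02, 7.95, 8.65 and 7.03 in FADD IEC-KO colons, and rose by 2.65 ± 0.64 (6.28-fold, adjusted p = 0.01003). Its groups overlapped through replicate 21. Abcb1a had 11.68, 11.58, 11.60, 11.58 and 11.52 in FADD IEC-KO Mlkl -/- colons, against 11.38, 9.22, 10.15, 10.98 and 11.23 in FADD IEC-KO colons, and rose by 1.00 ± 0.25 (adjusted p = 0.01096). All Mlkl -/- arrays were above, as for Gstt1 (0.63 ± 0.14, adjusted p = 0.005012) and for 2.01% of all genes. Sult1a1 (0.94), Ephx1 (0.60) and Hsd17b2 (0.44) rose with overlap. Ces2e fell by 0.91 ± 0.22 (adjusted p = 0.01058), with 8.10, 8.18, 7.97, 7.64 and 8.10 in FADD IEC-KO Mlkl -/- colons, against 8.80, 8.21, 8.95, 8.59 and 9.98 in FADD IEC-KO colons, fully below as 2.28% of all genes were. None of the 7 passed without replicates 22 and 23. All kept their sign, which is no separate support because they were picked with the remaining arrays included. Ces2e differed by -1.12 ± 0.25 then (adjusted p = 0.06202), Cyp2c55 by 1.79 ± 0.67, Abcb1a by 0.40 ± 0.21 and Gstt1 by 0.48 ± 0.15. Ephx1 passed in 2 and Hsd17b2 in 5 of 10 fits with 1 array left out, and none of the 7 in a fit of the compared arrays alone. Neutrophil means were 4.27 to 4.62 in FADD IEC-KO Mlkl -/- colons.

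RIPK3 loss in the epithelium, in the second series, gave no member that passed against FADD IEC-KO by limma (0.159% of all genes rose and 0.595% fell), with 9 members at an unadjusted p under 0.05 (14.6% of all genes). Cyp2c55 had 10.27, 10.10, 9.96, 10.24 and 10.22 in colons of FADD IEC-KO RIPK3 IEC-KO mice (replicates 88, 93, 112, 113 and 123), against 9.81, 9.71, 5.52, 10.92 and 7.31 in FADD IEC-KO colons. The double deletion had the narrowest Cyp2c55 spread of the 10 groups, with an SD of 0.13 against 2.19 in FADD IEC-KO colons (0.67 without replicates 117 and 124), and the difference of 1.51 ± 0.64 did not pass (adjusted p = 0.2605) and was 0.02 ± 0.59 without replicates 117 and 124. Abcb1a (0.77 ± 0.25, adjusted p = 0.1137) and Fmo5 (0.45 ± 0.17, adjusted p = 0.1858) were higher without passing.

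Against floxed colon, few members passed the adjusted threshold in the combined deletions. FADD IEC-KO Zbp1 -/- colon had 1 member above Fadd fl/fl colon by the test and none below (0.498% of all genes rose and 0.575% fell, and 15 members had an unadjusted p under 0.05, as did 12.7% of all genes). This was Ces2e, with 8.16, 8.99, 8.88, 9.11 and 8.60 in FADD IEC-KO Zbp1 -/- colons, against 7.82, 7.64, 7.72, 8.00 and 7.74 in Fadd fl/fl colons, a rise of 0.96 ± 0.22 (adjusted p = 0.01774). Ces2a and Cyp2d26 also lay above without passing, 3 members in all against 1.79% of all genes. With a clock score as covariate Ces2e differed by 0.83 and did not pass (adjusted p = 0.101); the score, activator minus output genes of the circadian clock, was -0.57 to 2.49 in FADD IEC-KO Zbp1 -/- colons and -1.31 to 1.74 in Fadd fl/fl colons. Akr1c19 differed by -1.06 ± 0.29 and did not pass (adjusted p = 0.05273).

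No member passed by limma between FADD IEC-KO Mlkl -/- and Fadd fl/fl colon (0.0667% of all genes rose and 0.0923% fell, 5 members at an unadjusted p under 0.05 and 9.38% of all genes), between the FADD and RIPK3 double deletion and Casp8 fl/fl colon (0.0462% and 0.0308%, 4 members and 10.7%) or between CASP8 IEC-KO Mlkl -/- and Fadd fl/fl colon (0.0154% and 0.0308%, 9 members and 8.19%). Ces2e differed by 0.22 ± 0.22 from Fadd fl/fl colon in FADD IEC-KO Mlkl -/- mice. Cyp2c55 differed by -0.45 ± 0.64 with Zbp1 loss and by -0.12 ± 0.64 with Mlkl loss in FADD IEC-KO mice, both against Fadd fl/fl, and by -0.25 ± 0.64 with RIPK3 loss against Casp8 fl/fl. A p that misses the threshold does not show that these levels were equal. These comparisons share their floxed arrays with the single knockout comparisons.

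**Figure D4:**
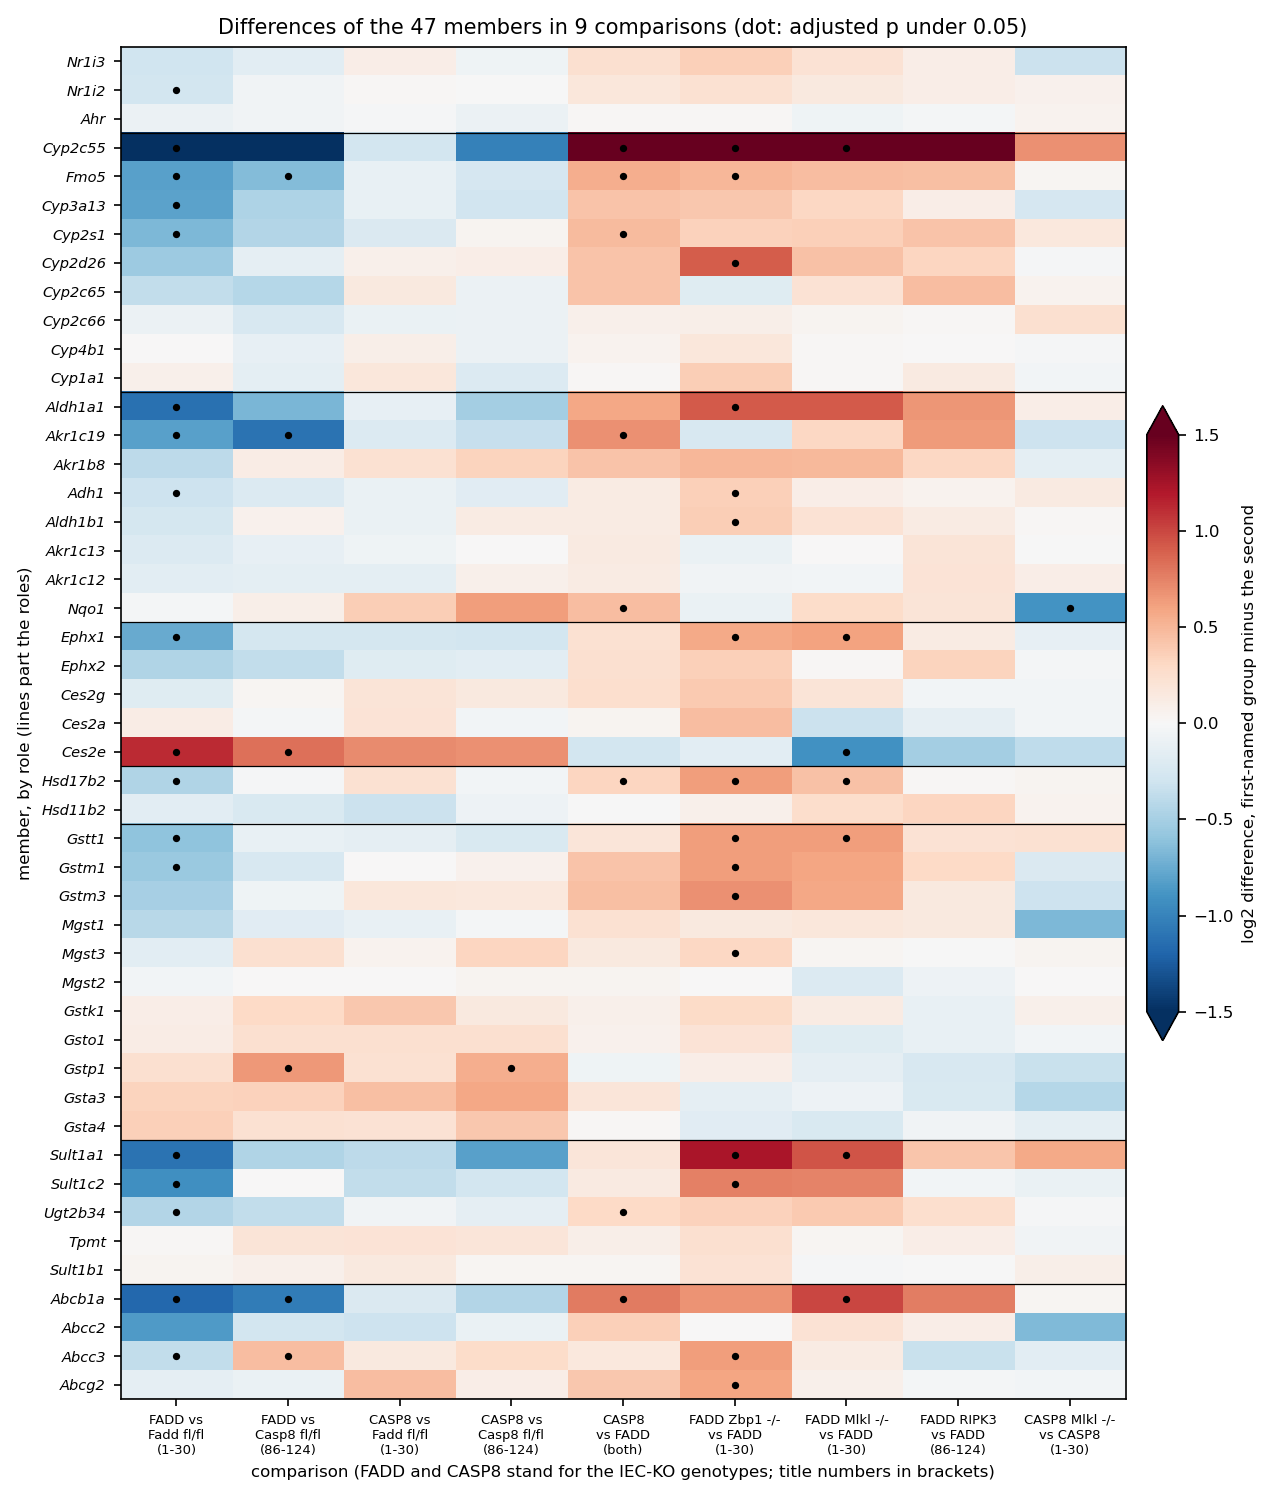
Log2 difference of each of the 47 members (down) in 9 comparisons (across), as a colour capped at 1.5 in either direction, with dots for adjusted p under 0.05; comparisons share arrays. Dots are most frequent in FADD IEC-KO against Fadd fl/fl (18 members) and in FADD IEC-KO Zbp1 -/- against FADD IEC-KO (16 members).

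The 2 combined deletions of the FADD IEC-KO line were compared directly in the first series. FADD IEC-KO Zbp1 -/- colon had 2 members above FADD IEC-KO Mlkl -/- colon and none below (0.226% of all genes rose and 0.200% fell, with 10 members and 8.75% of all genes at an unadjusted p under 0.05). Ces2a, a carboxylesterase, had 7.83, 8.46, 8.14, 8.28 and 7.83 in FADD IEC-KO Zbp1 -/- colons, against 7.17, 7.53, 7.37, 7.39 and 7.14 in FADD IEC-KO Mlkl -/- colons, a difference of 0.79 ± 0.19 (adjusted p = 0.03562). Gsto1, the omega-class glutathione transferase, had 10.21, 10.51, 10.48, 10.48 and 10.28 in FADD IEC-KO Zbp1 -/- colons, against 10.11, 10.13, 10.00, 9.95 and 9.86 in FADD IEC-KO Mlkl -/- colons, a difference of 0.38 ± 0.09 (adjusted p = 0.04023). Both separated the groups, as did Adh1 and Abcc3 without passing, 4 members against 1.85% of all genes. Each call passed in 3 of 10 fits with 1 array left out.

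With Mlkl loss in CASP8 IEC-KO mice 1 member fell, Nqo1, and none rose (limma; 0.128% of all genes rose and 0.292% fell, with 6 members and 13.1% of all genes at an unadjusted p under 0.05). Nqo1 had 6.36, 6.80, 6.41, 6.79 and 6.24 in CASP8 IEC-KO Mlkl -/- colons (replicates 6 to 10), against 7.21, 7.58, 7.24, 7.57 and 7.50 in CASP8 IEC-KO colons (replicates 16 to 20). All were below, and Nqo1 fell by 0.90 ± 0.20 (adjusted p = 0.03087), a call that passed in 5 of 10 fits with 1 array left out. In all, 3 members lay fully below (2.09% of all genes) and 2 fully above (1.93%). The clock score was 1.70 to 2.70 in CASP8 IEC-KO Mlkl -/- colons and -1.44 to 1.81 in CASP8 IEC-KO colons. With the score as covariate Nqo1 differed by -0.61 and did not pass (adjusted p = 0.1796). The difference of the Mlkl effect between mice lacking FADD and mice lacking caspase-8 passed for no member by limma (0.00513% of all genes with a positive and 0.0103% with a negative difference, 13 members and 11.0% of all genes at an unadjusted p under 0.05), and for Nqo1 was 1.17 ± 0.28 (adjusted p = 0.1347).

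Over all 10 groups the means of Ces2e were 8.90 ± 0.67, 8.75 ± 0.38, 8.71 ± 0.37, 8.58 ± 0.44 and 8.49 ± 0.33 in FADD IEC-KO (first series), FADD IEC-KO Zbp1 -/-, FADD IEC-KO (second series), CASP8 IEC-KO (second series) and CASP8 IEC-KO (first series) colons, 8.20 ± 0.39, 8.11 ± 0.25 and 8.00 ± 0.21 with RIPK3 loss in FADD IEC-KO colon and with Mlkl loss in CASP8 IEC-KO and in FADD IEC-KO colon, and 7.89 ± 0.17 and 7.78 ± 0.14 in Casp8 fl/fl and Fadd fl/fl colons (SD, n = 5 each). Neighbours in this order differed by less than their spread. Within FADD IEC-KO colon of the first series, Ces2e was lowest in replicate 22 (8.21), which had the highest neutrophil mean, and highest in replicate 25 (9.98). In the second series it was highest in replicate 117 (9.32), which had the highest neutrophil mean of that group (7.80). A relation of Ces2e to the neutrophil markers was not tested.

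The spread of the members was larger in FADD IEC-KO colon with all arrays. The median SD over the 47 members was 0.45 in the first and 0.30 in the second series of FADD IEC-KO, against 0.16 to 0.23 in the other 8 groups, while the median SD of all genes was 0.20 and 0.19 in FADD IEC-KO and 0.14 to 0.20 in the others. Without replicates 22, 23, 117 and 124 the members' median SD was 0.21 in the first and 0.20 in the second series of FADD IEC-KO (3 arrays each). These values lay within the range of the members in the other groups. The median SD of all genes also fell, to 0.16 and 0.15, so the members still spread more than all genes. Because the arrays removed were those that stood apart, a smaller SD without them is no separate result. Cyp2c55 had SDs of 1.93 and 2.19 in the FADD IEC-KO groups, and of 1.59 and 0.67 without these arrays.

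A wider list of 131 other genes of these pathways, 116 of them measured, gave 20 that fell and 14 that rose in FADD IEC-KO against Fadd fl/fl colon, with a median of -0.09, where 10.1% of all genes fell and 8.59% rose. The largest falls were those of Abcb1b, the second mouse P-glycoprotein gene (-1.07 ± 0.24), the flavin monooxygenase Fmo2 (-1.06 ± 0.22), and the cytochromes Cyp2c68 (-0.81 ± 0.24) and Cyp2d22 (-0.79 ± 0.17). The largest rises were those of Dhrs9, a retinol and hydroxysteroid dehydrogenase (3.04 ± 0.57), Slc51b, a subunit of the basolateral bile acid exporter (1.71 ± 0.31), the carboxylesterase Ces2f (1.51 ± 0.28) and the glutathione transferase Gsta2 (1.25 ± 0.37). In the second series, with other arrays, 5 fell and 16 rose against Casp8 fl/fl (4.25% and 6.80% of all genes); Abcb1b fell by 1.13 ± 0.24, Dhrs9 rose by 1.94 ± 0.57, Slc51b by 1.17 ± 0.31 and Ces2f by 0.92 ± 0.28. Against FADD IEC-KO, 18 rose and 7 fell with Zbp1 loss (5.61% and 5.14% of all genes), 3 rose and 5 fell with Mlkl loss (2.91% and 2.93%), and 1 rose and none fell with RIPK3 loss (0.159% and 0.595%). In CASP8 IEC-KO against Casp8 fl/fl colon 5 rose and 1 fell (1.80% and 0.662% of all genes), and in CASP8 IEC-KO against Fadd fl/fl colon none passed (0.0564% and 0.0667%), with 16 at an unadjusted p under 0.05 (11.7% of all genes).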

How the data were processed

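Colon RNA (100 ng per array, per the labels' protocols) from 50 mice was hybridised to Affymetrix whole-transcript arrays. The authors deposited 1 table of log2 signals per probe set, made in Affymetrix Expression Console and Transcriptome Analysis Console per the submitters' processing notes, which give no versions or algorithm here. Array medians were 6.41 to 6.47, so a difference is relative to the other genes. The number of arrays limits the precision.

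Of 22142 probe sets, 19527 carried 1 gene symbol and 2615 none. Where genes had several, the probe set with the highest mean was kept (33 dropped), leaving 19494 genes. Groups were set by genotype together with title-number series. A model with a mean for each group was fitted to the 50 arrays together with limma 3.58.1 under R 4.3.3 (40 residual degrees of freedom, empirical Bayes), with Benjamini-Hochberg adjustment over 19494 genes. The labels do not say whether arrays of a group came from separate litters or days. No pair of arrays had identical values.

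The members, lists and tests were chosen with earlier results of these data known. Values of every array are given for the 2 members of each class with the largest passing difference in FADD IEC-KO against Fadd fl/fl, and up to 2 with the largest in every other comparison. Of the wider list, up to 4 passing genes each way are named; Gstp2 falls outside this rule and was named after its values were seen. Alternatives were quantile normalization, a fit to only the arrays compared, a filter on the dimmest 40% of genes, robust moderation with a trend, covariates for sex or clock score, array weights, a 2-fold requirement, leaving out each array, and removal of replicates 22 and 23. The fit was tested on simulated arrays with known changes, of which 63% were recovered at 0.5, 96% at 1 and 98% at 2 log2 units. The simulated noise was independent between genes, with the same spread in every group. It lacked the wide shared spread of the FADD IEC-KO groups and so does not test the calls that rest on them. Promoters and gene order came from RefSeq, GRCm38.p6.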

Additional observations from a re-analysis of the deposited data

Results flagged for a closer look

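Over 18 members and the list mean, 190 groups of 5 arrays were looked at for 1 array far from the other 4 (Dixon's test), and 7 had one (3.68%); chance flags about 1 in 20 groups. Gstm1 was low in CASP8 IEC-KO replicate 104 (10.64) and high in FADD IEC-KO Mlkl -/- replicate 11 (11.51). CASP8 IEC-KO replicate 17 was high for Ces2e (9.06) and low for Sult1a1 (8.63). Sult1a1 was also low in Casp8 fl/fl replicate 98 (8.86), Nr1i2 was high in Fadd fl/fl replicate 28 (8.24), and Sult1c2 was high in FADD IEC-KO RIPK3 IEC-KO replicate 88 (8.78). None of these arrays is replicate 22, 23, 117 or 124, which were low together in groups of wide spread.

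The effect of FADD IEC-KO on Abcc3 differed between the series by the interaction test, with a difference of -0.83 ± 0.19 (first minus second, adjusted p = 0.04941).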

How the results depend on the processing

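No call reversed its direction under any alternative run. Numbers of members that passed, with the number reported in brackets, moved by over 1.5 times as follows. The abbreviated comparisons are FADD IEC-KO against Fadd fl/fl (A) and against Casp8 fl/fl (B), CASP8 IEC-KO against Casp8 fl/fl (C) and against FADD IEC-KO (D), FADD IEC-KO Zbp1 -/- (E) and FADD IEC-KO Mlkl -/- (F) against FADD IEC-KO, CASP8 IEC-KO Mlkl -/- against CASP8 IEC-KO (G) and against Fadd fl/fl (H), FADD IEC-KO Zbp1 -/- against Fadd fl/fl (I) and against FADD IEC-KO Mlkl -/- (J), and the FADD IEC-KO effect between series (K). With the compared arrays alone, where the spread comes from those groups only, the numbers were A 9 (18), C 0 (1), D 0 (8), E 1 (16), F 0 (7), I 2 (1) and K 0 (1). Quantile normalization gave C 2, I 2 and K 0, and removal of the dimmest 40% of genes gave C 6, F 11 and I 3. Trend and robust moderation gave I 2. The sex covariate gave C 3 and K 0. The clock covariate gave C 4, D 5, G 0 (1) and I 0. Array weights gave A 11, D 2, E 9, G 2, H 2 (0), I 7, J 4 (2) and K 0. A 2-fold requirement gave A 5, B 2 (6), C 0, D 1, E 2, F 2, G 0, I 0, J 0 and K 0. Removing replicates 22 and 23 gave A 2, D 0, E 0, F 0 and K 0; removing 117 and 124, chosen after seeing the data, gave B 3, and removing all 4 gave D 0. The causes were not tested. The share of all genes that passed under each alternative is not given here. These counts and the ranges below therefore do not show whether the members moved more than other genes.

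Leaving out 1 array gave ranges of 8 (without replicate 22) to 24 (without 21) for A, 5 to 8 for B, 0 (without CASP8 IEC-KO replicate 87 or 104) to 5 (without 108) for C, 2 (without CASP8 IEC-KO replicate 92 or 108 or FADD IEC-KO replicate 22 or 117) to 16 (without FADD IEC-KO replicate 120) for D, 4 (without 22) to 21 (without 21) for E, 3 (without 22 or 23) to 14 (without 21) for F, 0 (without 8, 10, 17 or 19) to 2 (without 9) for G, 0 to 1 (without 6 or 9) for H, 0 (without 2, 4, 27 or 28) to 2 (without 1, 29 or 30) for I, 0 (without 2, 3, 4, 11, 13, 14 or 15) to 2 for J and 0 to 1 for K (0 in 12 of 20 fits). It gave 0 to 1 (without replicate 120) for FADD IEC-KO RIPK3 IEC-KO against FADD IEC-KO, 0 to 1 (without 21 or 25) for the Mlkl effect between lines, and 0 to 0 for every other comparison. No paired analysis was possible because no title number is shared between groups.

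Signal over background limits the dim members Cyp1a1 and Abcc2, and the number of arrays (5 a group) limits small differences.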
